A study of Mus musculus with 2 samples.

Results

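The mitochondrial respiratory complexes II, III, IV and V were followed through the 58 nuclear genes, of 22421 in all, whose symbol is Sdha, Sdhb, Sdhc, Sdhd, Cycs or Cyc1 or begins with Uqcr, Atp5, or Cox and a digit. Each gene was represented by its transcript with the highest summed value. The set holds 4 genes of complex II, 1 for cytochrome c, 9 of complex III, 17 for subunits of complex IV and 17 of complex V. It also holds Cox7a2l, which encodes a factor that joins complexes III and IV into supercomplexes, and 9 genes, Cox10 to Cox20, whose products assemble complex IV. The rule uses gene symbols and no values, but the set was proposed with earlier results of these data known.

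The cells were CGR8, a mouse embryonic stem cell line grown without feeder cells in medium with serum and leukaemia inhibitory factor (LIF). Cells of the first group received an siRNA against Set1a, and cells of the second a negative control siRNA, each given 2 times, with 72 hours on the label of both. Each group held 1 RNA-seq library of this 1 line, so no difference below has a replicate check and no p-value is given. Levels are RPKM, reads scaled by transcript length and library depth, at a depth of about 6420000 reads for Set1a siRNA and 6660000 for control siRNA. RNA came from bulk cells, in which fewer cells of a type and less RNA per cell cannot be told apart.

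Setd1a, the gene of the histone H3 lysine 4 methyltransferase that the siRNA targets, stood at 11.97 RPKM with Set1a siRNA and 14.2 RPKM with control siRNA. The ratio was 0.846. Its 95% counting interval, which covers counting error only and is exact for the recovered reads, was 0.746 to 0.959. Intervals wholly below 1 were found for 11.2% of all genes that average 1 RPKM or more, so this is not particular to Setd1a. All 8 embryonic stem cell markers were above 1 RPKM in both libraries and summed to 4123 RPKM with Set1a siRNA and 4413 RPKM with control siRNA. None of 6 primitive endoderm markers reached 1 RPKM, with sums of 2.36 RPKM with Set1a siRNA and 2.08 RPKM with control siRNA. Of 5 trophectoderm markers 2 reached it, with sums of 13.8 RPKM with Set1a siRNA and 14.5 RPKM with control siRNA, and Cdx2 and Elf5 were listed at 0. Of 5 fibroblast markers 1 reached it, with sums of 4.22 RPKM with Set1a siRNA and 2.52 RPKM with control siRNA, and Col1a2 and Dcn were listed at 0.

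Respiratory complexes pass electrons to oxygen and use the energy to pump protons across the inner mitochondrial membrane. Complex II takes electrons from succinate, an intermediate of the citric acid cycle, complex III passes them to cytochrome c, and complex IV, cytochrome c oxidase, passes them to oxygen. Complex V, the ATP synthase, lets protons flow back and makes ATP. Complexes III, IV and V also hold subunits encoded in mitochondrial DNA, which are not among the genes described here, and mouse embryonic stem cells are known to use both respiration and glycolysis.

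As a whole the set differed little between the libraries. Of the 58 genes, 53 averaged 1 RPKM or more over both libraries, and the other 5 were isoforms of complex IV subunits. Counted on log2(RPKM + 1), a scale that understates the change of low genes, 0 of the 53 were at least 2-fold higher with Set1a siRNA, where 0.771% of 11802 genes were, and 0 were at least 2-fold lower, where 0.407% were. At 1.5-fold, 0 were higher, against 2.77% of all genes, and 1, Cox20, was lower, against 1.75%. Lower with Set1a siRNA by any amount were 33 genes (62.3%), and higher were 20, whereas 48.8% of all genes were lower and 51.2% higher. The members had a median log2 fold of -0.07 and quartiles at -0.18 and 0.06, beside a median of 0.0063 over all genes. Because most of these genes are abundant, a closer background is the 1130 genes that average 50 RPKM or more, of which 53.7% were lower and 46.3% higher, at a median of -0.01. Of the 43 set members at that level, 28 were lower and 15 higher, at a median of -0.07.

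The counting interval of the ratio excluded 1 on the lower side for 14 genes (26.4%), where 11.2% of all genes did so, and on the higher side for 4, where 12.2% did so. How often an interval excludes 1 depends on the number of reads. Among genes of at least 50 RPKM, 13 of the 43 members (30.2%) excluded 1 on the lower side, near the 29.9% of all genes at that level. On the higher side, 4 of 43 (9.30%) did, against 19.7%. Genes named below for their intervals, beyond the highest and lowest of each group, were chosen after their values were seen.

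**Figure D1:**
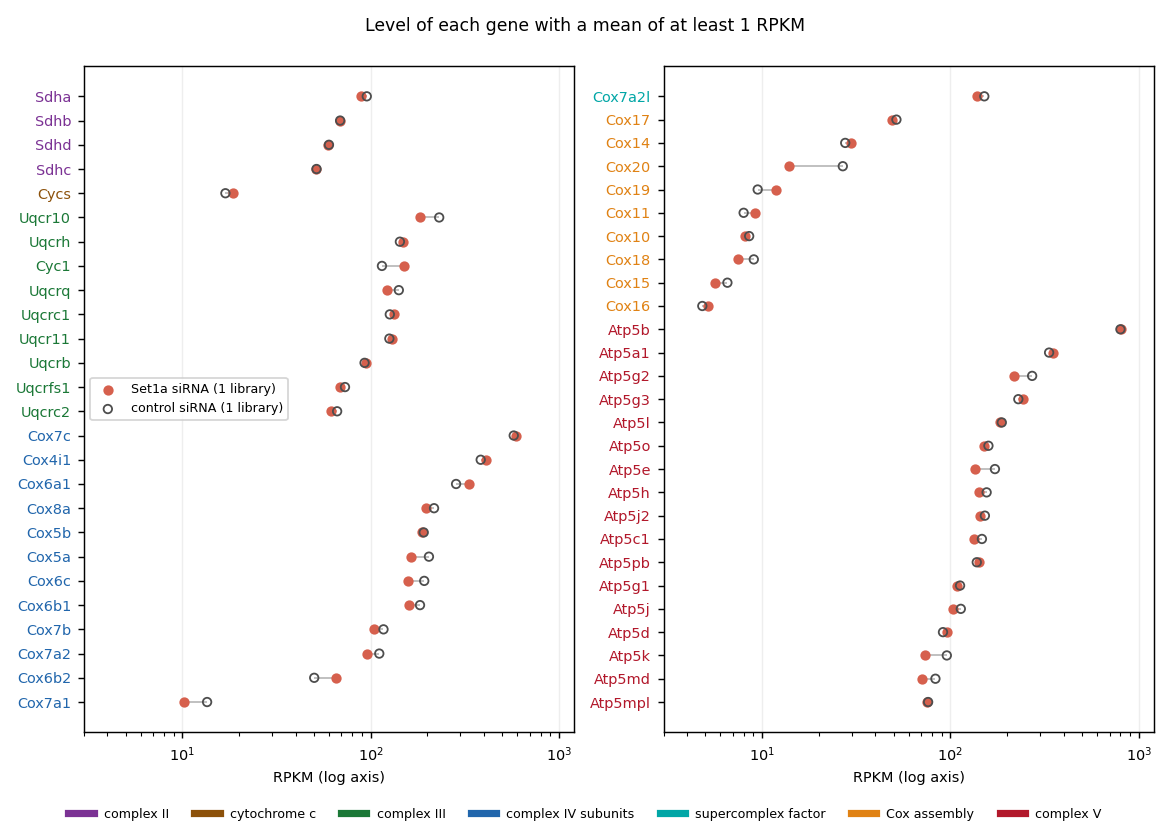
Level in RPKM, on a log axis, of the 53 genes that average 1 RPKM or more, by complex and from the highest to the lowest mean; filled points are the Set1a siRNA library and open circles the control siRNA library, 1 library each. Most pairs of points nearly coincide, Atp5b is highest at 810 RPKM with Set1a siRNA and 799.6 RPKM with control siRNA, and the widest gap is that of Cox20.

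Complex II, succinate dehydrogenase, was nearly level between the libraries. Sdha, the flavoprotein subunit that oxidises succinate, was at 88.5 RPKM with Set1a siRNA and 95.4 RPKM with control siRNA, a ratio of 0.927 (0.866 to 0.992). It was the highest of the 4 genes and the farthest from 1. Sdhb, the iron-sulphur subunit, was at 69.1 RPKM with Set1a siRNA and 68.9 RPKM with control siRNA, a ratio of 1.003 (0.882 to 1.14). The membrane anchors Sdhc and Sdhd had ratios of 0.993 (0.916 to 1.08) and 0.986 (0.869 to 1.12). Summed over the complex, 3753 reads with Set1a siRNA stood beside 4037 with control siRNA, a depth-scaled ratio of 0.964 (0.921 to 1.01).

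Within complex III, the cytochrome bc1 complex, Cyc1 had the highest ratio. It encodes cytochrome c1, the heme subunit that hands electrons to cytochrome c, and was at 151 RPKM with Set1a siRNA and 115 RPKM with control siRNA, from 1158 reads with Set1a siRNA and 913 with control siRNA. The ratio was 1.31 (1.20 to 1.44), and 92.6% of all genes had a lower log2 fold. Uqcr10, a small supernumerary subunit, was at 184 RPKM with Set1a siRNA and 231 RPKM with control siRNA. Its ratio of 0.794 (0.707 to 0.891) was the lowest of the complex, although its level was the highest in both libraries. A lower log2 fold than that of Uqcr10 was found for 7.70% of all genes. Uqcrq, another small subunit, was at 122 RPKM with Set1a siRNA and 141 RPKM with control siRNA, a ratio of 0.864 (0.799 to 0.934).

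For the other 6 genes of complex III the interval included 1. Uqcrc1 and Uqcrc2, the core proteins, had ratios of 1.06 and 0.933, and Uqcrfs1, the Rieske iron-sulphur protein, had 0.942. The small subunits Uqcrb, Uqcr11 and Uqcrh had 1.02, 1.04 and 1.04. As a complex, 5 genes were higher and 4 lower (44.4%, against 53.7% of genes of at least 50 RPKM). The median log2 fold was 0.02 and the summed-read ratio 0.998 (0.965 to 1.03). Without Cyc1 the summed-read ratio was 0.951 (0.917 to 0.986) and the median -0.03, with 4 genes higher and 4 lower. Cyc1 had the highest ratio, so leaving it out had to lower the summed ratio. Without Uqcr10, which had the lowest ratio, the summed-read ratio was 1.02. Cycs, which encodes the somatic cytochrome c that Cyc1 protein reduces, was at 18.6 RPKM with Set1a siRNA and 16.9 RPKM with control siRNA, a ratio of 1.10 (0.944 to 1.27).

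The general subunits of complex IV were mostly lower with Set1a siRNA, but its most abundant genes were not. Cox7c, a small membrane subunit, was the second most abundant gene of the set, at 589.6 RPKM with Set1a siRNA and 576 RPKM with control siRNA, a ratio of 1.02 (0.958 to 1.10). Cox4i1, a large nuclear-encoded subunit, was at 408 RPKM with Set1a siRNA and 384 RPKM with control siRNA, a ratio of 1.06 (0.994 to 1.14). Cox6a1, another membrane subunit, was at 332 RPKM with Set1a siRNA and 284 RPKM with control siRNA, a ratio of 1.17 (1.07 to 1.27). These 3 were the highest genes of the complex in both libraries, and none was lower with Set1a siRNA.

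The other 7 of the 10 general subunits were lower (70%), where 53.7% of genes of at least 50 RPKM and 59.6% of the 178 with 200 to 800 nucleotides were. The intervals of 5 of the 10 excluded 1 on the lower side, where 29.9% of genes of at least 50 RPKM and 33.7% of the shorter ones among them did. Cox5a, which with Cox5b sits at the matrix side of the enzyme, was at 165 RPKM with Set1a siRNA and 204 RPKM with control siRNA, a ratio of 0.806 (0.731 to 0.889). Cox6c was at 158 RPKM with Set1a siRNA and 193 RPKM with control siRNA, a ratio of 0.820 (0.728 to 0.922). Cox7a2, Cox6b1 and Cox7b had ratios of 0.856 (0.755 to 0.971), 0.870 (0.772 to 0.979) and 0.885 (0.797 to 0.983). Cox8a, at 0.902 (0.813 to 1.001), and Cox5b, at 0.984 (0.913 to 1.06), had intervals that included 1. Over all 12 subunit genes above 1 RPKM, 8 were lower (66.7%, against 48.8% of all genes) and 4 higher, at a median log2 fold of -0.16. Weighted by reads the difference was smaller: the summed reads had a ratio of 0.972 (0.946 to 0.9995).

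Isoforms of complex IV subunits that are known from particular adult tissues averaged below 1 RPKM over both libraries for 5 of 7 genes. The testis isoform Cox6b2 was the highest of the 7, at 65.9 RPKM with Set1a siRNA and 50.2 RPKM with control siRNA. Its ratio was 1.31 (1.06 to 1.63), from 195 reads with Set1a siRNA and 154 with control siRNA. This was the highest ratio among the complex IV subunit genes above 1 RPKM, and 92.4% of all genes had a lower log2 fold. The muscle and heart isoform Cox7a1 was at 10.2 RPKM with Set1a siRNA and 13.5 RPKM with control siRNA, with 24 reads with Set1a siRNA, 33 with control siRNA and a ratio of 0.754 (0.426 to 1.31).

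The other isoforms were below the floor of 1 RPKM. Cox4i2, known from lung, was at 0.214 RPKM from 1 read with Set1a siRNA and 1.24 RPKM from 6 reads with control siRNA, a ratio of 0.173 (0.00376 to 1.42). Cox7b2, a testis isoform, had 3 reads with Set1a siRNA and 2 with control siRNA, and Cox8c, also of testis, had 1 in each. Cox6a2 and Cox8b, the heart and skeletal muscle forms, were listed at 0 in both libraries. Of 5 muscle and heart marker genes 1, Actn2, reached 1 RPKM, and the 5 summed to 2.19 RPKM with Set1a siRNA and 3.23 RPKM with control siRNA.

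Where 2 isoforms can fill the same place in the enzyme, their shares describe the makeup of the transcripts. Cox6b2 made 29.3% of the summed Cox6b1 and Cox6b2 RPKM with Set1a siRNA and 21.5% with control siRNA. In reads this was 195 of 711 (27.4%, Clopper-Pearson interval 24.2% to 30.9%) with Set1a siRNA and 154 of 769 (20.03%, 17.3% to 23.0%) with control siRNA. These intervals did not overlap, but they cover counting error only. Among genes of at least 50 RPKM, ratio intervals that exclude 1 were common, 19.7% on the higher side and 29.9% on the lower. The sum of both genes was 225 RPKM with Set1a siRNA and 233 RPKM with control siRNA. Cox7a1 made 9.69% of the Cox7a1 and Cox7a2 RPKM with Set1a siRNA and 10.9% with control siRNA, within counting error. Cox4i2 made 0.0524% of Cox4i1 and Cox4i2 RPKM with Set1a siRNA and 0.322% with control siRNA.

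**Figure D2:**
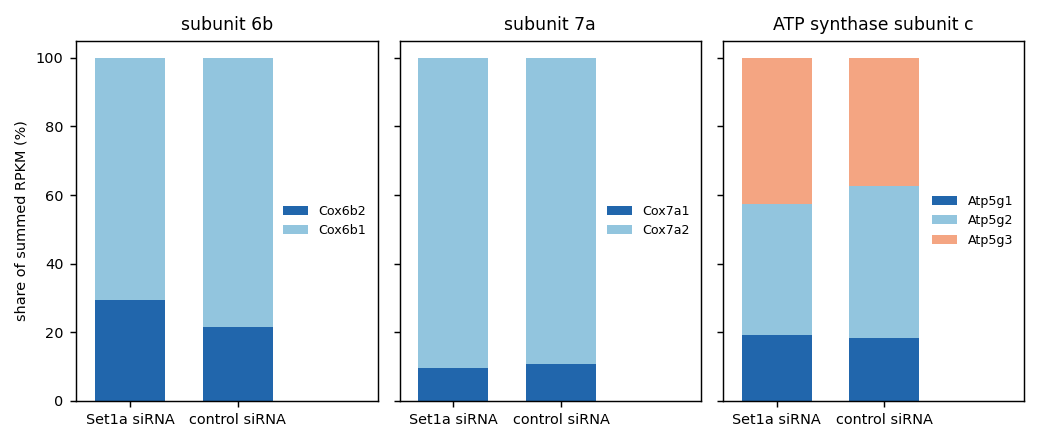
Share of summed RPKM, in percent, taken by each isoform gene of complex IV subunits 6b and 7a and of ATP synthase subunit c, with the Set1a siRNA library as the left bar and the control siRNA library as the right bar of each panel, 1 library each. The Cox6b2 part is 29.3% with Set1a siRNA and 21.5% with control siRNA, and the Atp5g2 part is 38.4% with Set1a siRNA and 44.3% with control siRNA.

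Cox7a2l was at 138 RPKM with Set1a siRNA and 151 RPKM with control siRNA, a ratio of 0.911 (0.834 to 0.994). A shorter transcript length also gives whole reads for this gene, and then the interval is 0.804 to 1.03, which includes 1.

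The genes that assemble complex IV were expressed far below most of the subunits, and Cox20 had the widest difference of the set's genes above 1 RPKM. COX20 stabilises the newly made subunit 2 of the oxidase, which is encoded in mitochondrial DNA. Cox20 was at 13.9 RPKM with Set1a siRNA and 26.8 RPKM with control siRNA, from 40 reads with Set1a siRNA and 80 with control siRNA. The ratio was 0.518 (0.345 to 0.767) and the log2 fold -0.90, a value that only 0.458% of all genes fell below. At the smallest length that gives whole reads, the counts are 25 with Set1a siRNA and 50 with control siRNA and the interval is 0.307 to 0.854. With a trend in GC content and length over all genes removed, the log2 fold of Cox20 was -0.73. Cox20 also has a near-identical pseudogene, and how reads that match several places were counted is not known.

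None of the other 8 assembly genes had an interval that excluded 1. Cox17, the copper chaperone of the oxidase and the most abundant of the 9, was at 48.9 RPKM with Set1a siRNA and 51.7 RPKM with control siRNA, a ratio of 0.947 (0.745 to 1.20). Cox19, also tied to copper delivery, was at 11.9 RPKM with Set1a siRNA and 9.48 RPKM with control siRNA, a ratio of 1.25 (0.999 to 1.57) and the highest of the group. Cox11, which inserts copper into subunit 1, had a ratio of 1.15. Cox10 and Cox15, the enzymes that convert heme B into heme A, had 0.949 and 0.863. Cox14 and Cox16, which act on newly made core subunits, had 1.08 and 1.07, and Cox18, which helps to insert subunit 2 into the membrane, had 0.829. The group held 4 higher and 5 lower genes (55.6% lower, against 48.8% of all genes). The median log2 fold was -0.07 and the summed-read ratio 0.966 (0.886 to 1.05).

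**Figure D3:**
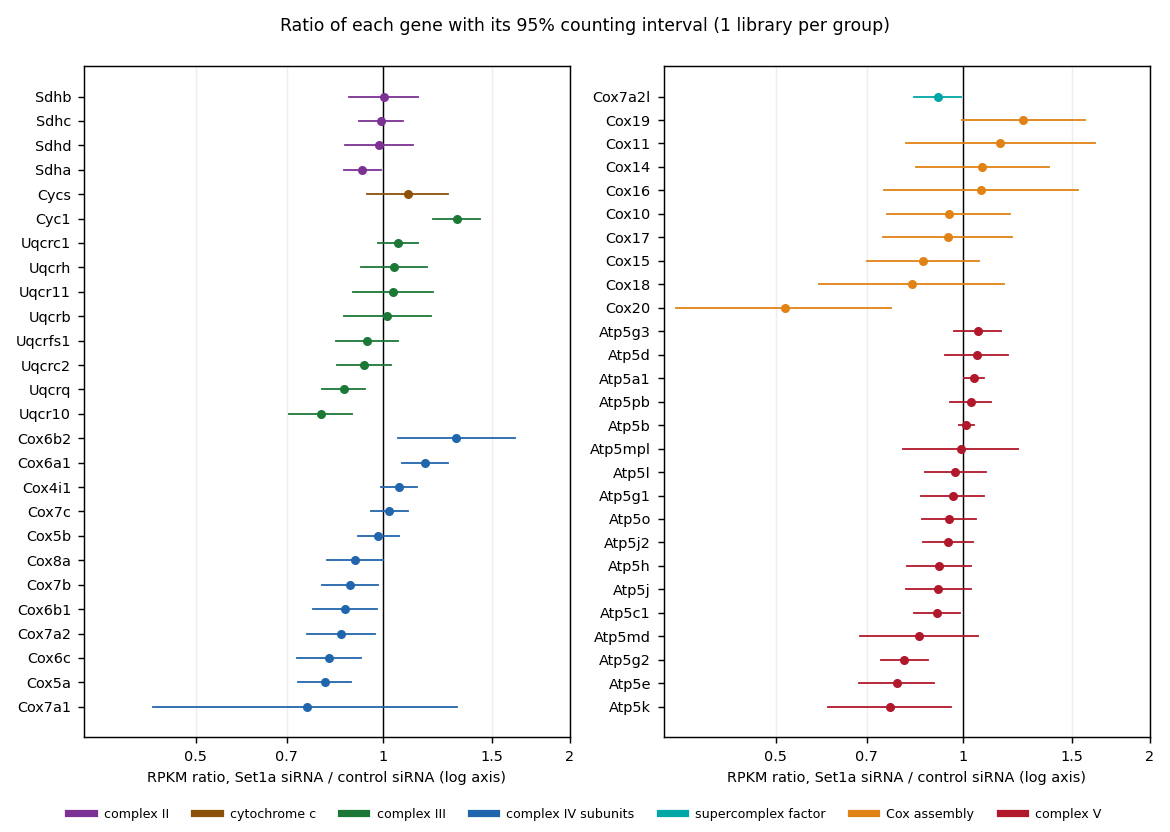
Ratio of deposited RPKM, Set1a siRNA over control siRNA, on a log axis, for each of the 53 genes above 1 RPKM, with bars for the 95% counting interval (1 library per group). The intervals of Cyc1, Cox6a1, Cox6b2 and Atp5a1 lie above 1, those of 14 genes lie below 1, and 35 include it.

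The catalytic core of complex V was level, while the small subunits around it were mostly lower with Set1a siRNA. Atp5b, the catalytic beta subunit, was the most abundant gene of the set, at 810 RPKM with Set1a siRNA and 799.6 RPKM with control siRNA, a ratio of 1.01 (0.985 to 1.04). Atp5a1, the alpha subunit, was at 349 RPKM with Set1a siRNA and 334 RPKM with control siRNA, a ratio of 1.04 (1.005 to 1.08) whose interval just excluded 1. The central stalk subunits of F1 differed from each other. Atp5d had a ratio of 1.05 (0.936 to 1.18), Atp5c1 of 0.908 (0.833 to 0.990) and Atp5e, the epsilon subunit, of 0.783 (0.681 to 0.900), at 135 RPKM with Set1a siRNA and 172 RPKM with control siRNA. Over the 5 F1 genes the summed-read ratio was 1.01 (0.990 to 1.03).

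Of the 12 genes for the peripheral stalk and the membrane part, 10 were lower and 2 higher, at a median log2 fold of -0.08. The summed-read ratio was 0.948 (0.918 to 0.978), and the median length 663 nucleotides. The 178 genes of 200 to 800 nucleotides and at least 50 RPKM had nearly the same summed-read ratio, 0.952, with 59.6% lower. Intervals below 1 were found for 2 of the 12 (16.7%), against 33.7% of the 178. Atp5k, the small membrane subunit e, had the lowest ratio of the complex, at 73.1 RPKM with Set1a siRNA and 95.7 RPKM with control siRNA. Its ratio was 0.763 (0.608 to 0.957), from 137 reads with Set1a siRNA and 186 with control siRNA. The peripheral stalk genes Atp5pb, Atp5h, Atp5j and Atp5o had ratios of 1.03, 0.916, 0.914 and 0.949. Of the other membrane genes, Atp5j2 had 0.947, Atp5l 0.973, Atp5md 0.850 and Atp5mpl 0.992. All 8 of these intervals included 1.

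The proton-carrying c ring is built from identical subunits that are encoded by 3 genes, Atp5g1, Atp5g2 and Atp5g3, which differ in the targeting peptide that is cut off on import. Atp5g2 was at 219 RPKM with Set1a siRNA and 272 RPKM with control siRNA, a ratio of 0.805 (0.738 to 0.879). Atp5g3 was at 242 RPKM with Set1a siRNA and 229 RPKM with control siRNA, a ratio of 1.06 (0.969 to 1.15) and the highest of complex V. Atp5g1 was at 109 RPKM with Set1a siRNA and 113 RPKM with control siRNA, a ratio of 0.964 (0.858 to 1.08). The first place among the 3 thus belonged to Atp5g3 with Set1a siRNA and to Atp5g2 with control siRNA. In shares of the summed RPKM, Atp5g2 made 38.4% with Set1a siRNA and 44.3% with control siRNA, and Atp5g3 made 42.5% with Set1a siRNA and 37.4% with control siRNA. The sum was 569.8 RPKM with Set1a siRNA and 614 RPKM with control siRNA, a summed-read ratio of 0.932 (0.883 to 0.984). The 178 genes of 200 to 800 nucleotides and at least 50 RPKM had 0.952. Near-identical copies were found for Atp5g1 (5) and Atp5g2 (4) but not for Atp5g3. How reads that match several places were counted is not known, and the part of this in the shares was not tested.

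Side by side, the complexes had overlapping intervals of their summed reads: 0.964 (0.921 to 1.01) for complex II, 0.998 (0.965 to 1.03) for III, 0.972 (0.946 to 0.9995) for the subunits of IV, 0.966 (0.886 to 1.05) for the assembly genes and 0.991 (0.974 to 1.01) for V. Complex V held 12 lower (70.6%) and 5 higher genes at a median log2 fold of -0.07, where 53.7% of genes of at least 50 RPKM were lower. The members were then divided by transcript length. Of the 13 members of at least 50 RPKM whose intervals lay below 1, 8 were among 24 with 200 to 800 nucleotides (33.3%) and 5 among 19 longer ones (26.3%). Over all genes of that level the shares were close to these, 33.7% of 178 shorter and 29.3% of 927 longer genes. The 24 shorter members had a median log2 fold of -0.10 and a summed-read ratio of 0.951. The 178 genes of the same length and level, members included, had a median of -0.05 and a summed-read ratio of 0.952. The 19 longer members had a median of -0.02, where 927 longer genes of that level had -0.01. Across the 43 members of at least 50 RPKM the Spearman rank correlation of transcript length with log2 fold was 0.23, and across the 1111 genes of that level with a length it was 0.07. Both describe genes of the same 2 libraries. With a trend in GC content and length over all genes removed, the median of the 53 members was -0.02, and 28 were lower and 25 higher.

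**Figure D4:**
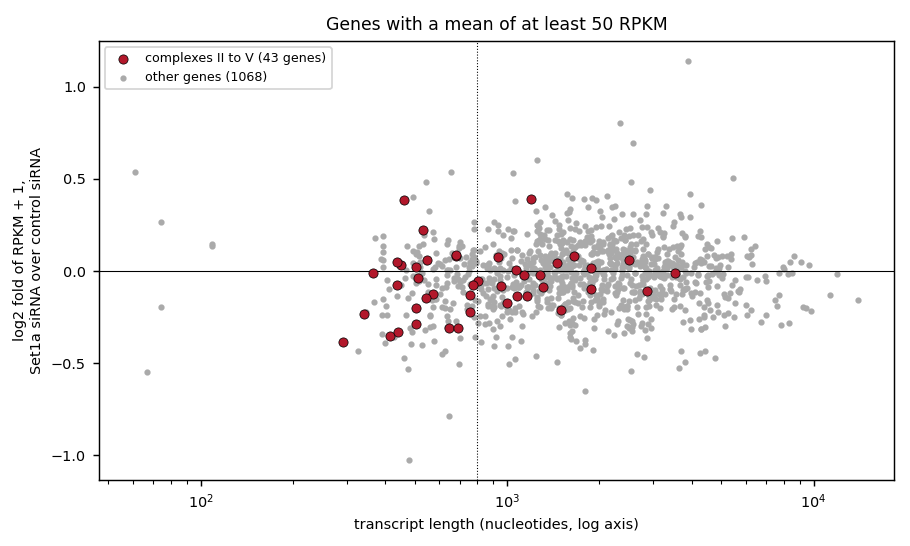
Log2 fold of RPKM + 1, Set1a siRNA over control siRNA, against transcript length in nucleotides on a log axis, for genes that average 50 RPKM or more; red points are the 43 members at that level and grey points the 1068 other genes with a known length. The dotted line marks 800 nucleotides, left of which most red points lie below 0.

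Many genes of this set have processed pseudogenes, and the rule by which the authors counted reads that match several places is not known. By sequence comparison 26 of the 58 members had a near-identical annotated transcript under another gene name, for 22 of them a pseudogene. Near-identical meant at least 90% identity over at least 50% of the shorter one. Genomic positions were not compared, so a transcript that overlaps the member itself would also count as a copy. Atp5l had 17 such copies, Atp5g1 had 5, Atp5g2 had 4 and Atp5g3 had 0. Cox20 had 1, a processed pseudogene at 97.2% identity. Cox7c was the one member with a copy that the deposited tables also list, Gm10012. The members with a copy had a median log2 fold of -0.08, with 18 lower and 8 higher, at a median length of 610.5 nucleotides. The 27 measured members without one had -0.01, with 15 lower and 12 higher, at a median length of 1194 nucleotides. Length and copies thus went together, and the part of either in the folds was not tested.

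The promoters of nuclear respiratory genes are known for sites of the factors NRF1 and of the ETS family member GABP. RefSeq promoter windows of build GRCm38.p6, each with 250 bases before and 50 after a gene's start, were matched for 44 of the 58 members. Searched on both strands, the NRF1-type motif, the bases GCGC, 1 base of any kind and TGCGC in a row, was in the windows of 10 members (22.7%), against 11.97% of 9310 genes above 1 RPKM with a window and 5.19% of all 27025 genes. The ETS-type motif CCGGAAG was in those of 18 members (40.9%), against 21.2% of genes above 1 RPKM and 9.93% of all genes. The YY1-type motif AAGATGGCG was in those of 3 members (6.82%), against 3.87% of genes above 1 RPKM and 1.64% of all genes. Such matches are letters in a window and not measured binding sites.

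Median folds of members with and without a motif were close. The 10 members with the NRF1-type motif had a median log2 fold of -0.09 and the 32 measured members without it -0.06. For the ETS-type motif the medians were -0.10 with it (18 genes) and -0.06 without it (24 genes). Of the factor genes, Nrf1 was at 16.6 RPKM with Set1a siRNA and 17.6 RPKM with control siRNA, a ratio of 0.943 (0.788 to 1.13). Gabpa was at 31.7 RPKM with Set1a siRNA and 28.6 RPKM with control siRNA, a ratio of 1.11 (1.01 to 1.21). By complex, the NRF1-type motif was in 6 of 15 genes of complex V with a window, 2 of 3 of complex II, 1 of 5 of complex III, 1 of 12 of complex IV and 0 of 7 assembly genes. The ETS-type motif was in 5 of those 7 assembly genes.

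Promoters of 4 members are shown. Cox6a1 and Cox6b2 were the subunit genes of complex IV whose intervals lay above 1. Atp5k had the lowest ratio of complex V, and Cox20 the lowest of the set's genes above 1 RPKM. The promoters are given as the 250 bases before the RefSeq start, read 5′ to 3′ on the gene's strand. Capitals mark matches to the NRF1-type and ETS-type motifs in either orientation. Cox6a1 lies on the minus strand at chr5:115348959-115349208, Cox6b2 on the minus strand at chr7:4753095-4753344, Atp5k on the minus strand at chr5:108434400-108434649 and Cox20 on the plus strand at chr1:178318903-178319152.
Cox6a1: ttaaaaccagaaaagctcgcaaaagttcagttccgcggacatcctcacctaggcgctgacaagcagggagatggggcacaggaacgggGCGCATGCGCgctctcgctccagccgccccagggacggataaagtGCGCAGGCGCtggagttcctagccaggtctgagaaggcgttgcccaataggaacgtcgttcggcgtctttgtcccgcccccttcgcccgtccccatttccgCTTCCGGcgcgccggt
Cox6b2: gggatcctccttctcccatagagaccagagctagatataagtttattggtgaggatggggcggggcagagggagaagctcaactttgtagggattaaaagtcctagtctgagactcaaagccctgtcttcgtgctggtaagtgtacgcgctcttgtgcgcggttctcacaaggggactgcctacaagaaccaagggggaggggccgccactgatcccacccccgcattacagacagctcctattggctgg
Atp5k: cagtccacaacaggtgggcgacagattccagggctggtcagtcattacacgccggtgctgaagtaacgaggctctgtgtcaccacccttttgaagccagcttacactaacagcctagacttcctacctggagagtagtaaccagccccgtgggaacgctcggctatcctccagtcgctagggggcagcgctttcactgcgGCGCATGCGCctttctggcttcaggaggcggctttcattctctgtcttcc
Cox20: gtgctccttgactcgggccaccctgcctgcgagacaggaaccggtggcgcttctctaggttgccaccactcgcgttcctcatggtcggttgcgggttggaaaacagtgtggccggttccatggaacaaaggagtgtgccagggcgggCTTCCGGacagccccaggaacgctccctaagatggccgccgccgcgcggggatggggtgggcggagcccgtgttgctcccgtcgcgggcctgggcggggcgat
Cox6a1, with a ratio of 1.17, has NRF1-type matches 162 to 153 and 117 to 108 bases before the start and an ETS-type match at 16 to 10. Atp5k, with a ratio of 0.763, has an NRF1-type match with the same letters as the first of these, at 50 to 41 bases. Its window also holds an ETS-type match after the start, outside the bases shown. Cox20, at 0.518, has an ETS-type match 103 to 97 bases before the start, and Cox6b2, at 1.31, has neither. The ratio of observed to expected CpG pairs, which is high in CpG islands, was 0.432 in the window of Cox6b2, against a median of 0.828 over the members' windows, 0.759 over those of genes above 1 RPKM and 0.384 over all. It was 0.333 for Cox7a1 and 0.115 for Cox8b, and also low, at 0.368, for the general subunit gene Cox7b.

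Genes around these complexes were read from lists drawn up by function. Of 38 complex I genes above 1 RPKM, 26 were lower (68.4%, against 48.8% of all genes) and 12 higher. Their median log2 fold was -0.11 and their summed-read ratio 0.910 (0.888 to 0.933). That interval lies below those of complex III, the subunits of IV, and V. The list had a median length of 698 nucleotides and median levels of 48.8 RPKM with Set1a siRNA and 54.9 RPKM with control siRNA. Of the 178 genes of 200 to 800 nucleotides and at least 50 RPKM, 59.6% were lower, at a summed-read ratio of 0.952. Within the complex I list 14 intervals (36.8%) excluded 1 on the lower side. Of all genes 11.2% did so, of those of at least 50 RPKM 29.9%, and of the 178 shorter ones 33.7%. On the higher side 3 did, where 12.2% of all genes did. Ndufc1, a small accessory subunit, had the lowest ratio, 0.620 (0.463 to 0.826), at 29.7 RPKM with Set1a siRNA and 47.9 RPKM with control siRNA. The list is by symbol and holds a pseudogene, Ndufs5-ps, for which no reads were recovered. It also holds Ndufa4, whose protein is now counted with complex IV and whose ratio was 1.03 (0.931 to 1.14). Ndufa4l2, listed by its symbol as a gene like Ndufa4, had the highest ratio of the list, 1.55 (1.15 to 2.10). It was 1 of the 3 with an interval above 1.

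Assembly factors of complexes II, III and V were mostly lower with Set1a siRNA. Of 12 above 1 RPKM, 11 were lower and 1 higher, at a median log2 fold of -0.20, where 48.8% of all genes were lower. At least 1.5-fold lower were 2, against 1.75% of all genes. The intervals of 4 (33.3%) excluded 1 on the lower side, against 11.2% of all genes. Uqcc2, which is needed to make cytochrome b of complex III, was at 34.6 RPKM with Set1a siRNA and 61.9 RPKM with control siRNA, from 105 reads with Set1a siRNA and 195 with control siRNA, a ratio of 0.558 (0.436 to 0.711). Sdhaf4, which helps to join the flavoprotein to complex II, was at 7.47 RPKM with Set1a siRNA and 13.5 RPKM with control siRNA, a ratio of 0.553 (0.348 to 0.863). The complex II factors Sdhaf1 and Sdhaf2 had ratios of 0.758 (0.622 to 0.923) and 0.750 (0.587 to 0.957), and Sdhaf3 had 1.04 (0.857 to 1.25). Atpaf1, a factor for F1, and Ttc19, a factor for complex III, had 0.988 (0.819 to 1.19) and 0.998 (0.723 to 1.35).

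Of 17 further complex IV assembly factors, 11 were lower (64.7%, against 48.8% of all genes) and 6 higher, at a median log2 fold of -0.05. Surf1, which takes part in heme delivery to the oxidase, was the one whose interval excluded 1, at 11.0 RPKM with Set1a siRNA and 15.7 RPKM with control siRNA and a ratio of 0.699 (0.523 to 0.932). Of 11 regulators of mitochondrial biogenesis above 1 RPKM, 7 were higher and 4 lower (36.4%, against 48.8% of all genes), at a median of 0.06. Polrmt, the mitochondrial RNA polymerase, had a ratio of 1.29 (1.06 to 1.56), and Tfb2m, its initiation factor, of 0.658 (0.503 to 0.858). Ppargc1a, a coactivator of these genes in muscle and brown fat, was listed at 0 in both libraries.

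Of the 14 citric acid cycle genes outside complex II, 9 were higher and 5 lower (35.7%, against 48.8% of all genes). Their median log2 fold was 0.07 and their summed-read ratio 1.03 (1.001 to 1.06). Suclg1, a subunit of succinyl-CoA synthetase, whose product succinate feeds complex II, had a ratio of 1.32 (1.10 to 1.57), at 33.2 RPKM with Set1a siRNA and 25.3 RPKM with control siRNA. Mdh2, the mitochondrial malate dehydrogenase, had 1.15 (1.05 to 1.25). On the lower side, Suclg2, another subunit of succinyl-CoA synthetase, had 0.879 (0.801 to 0.965), and Fh1 had 0.917 (0.845 to 0.995). Of the 14 intervals, 3 lay above 1 and these 2 below it. Over all genes, 12.2% lay above and 11.2% below. Of 19 glycolysis genes 17 were higher and 2 lower, at a median of 0.21, where 51.2% of all genes were higher.

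**Figure D5:**
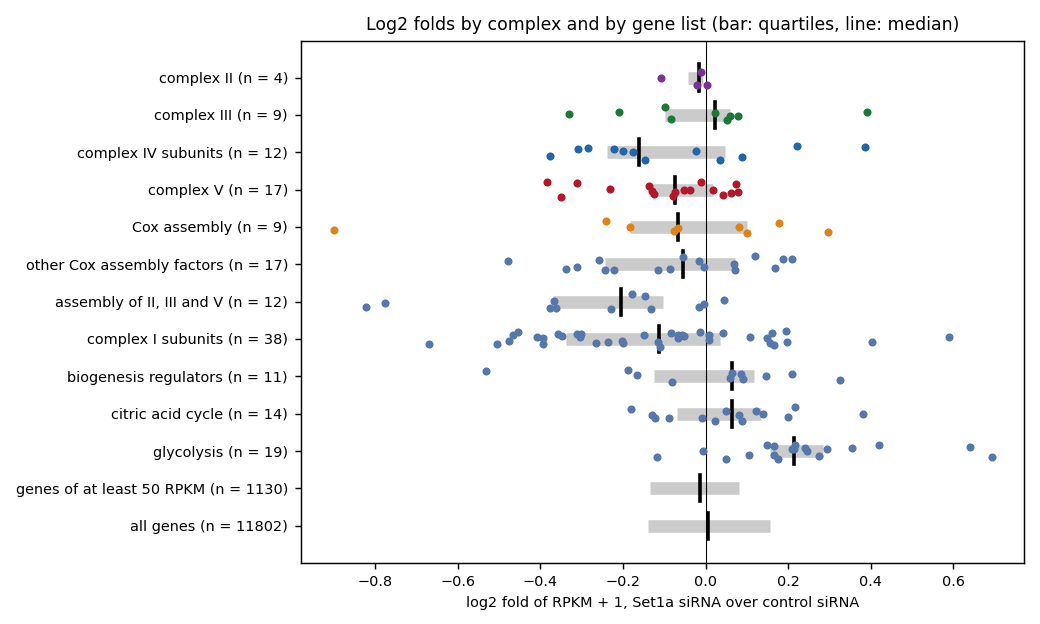
Log2 fold of RPKM + 1, Set1a siRNA over control siRNA, of each gene (points) in each complex or gene list, with a grey bar from the lower to the upper quartile and a black line at the median; the last rows give bar and line alone for 1130 genes of at least 50 RPKM and for all 11802 genes. The medians of complex IV subunits (-0.16), complex I (-0.11) and the assembly factors of II, III and V (-0.20) lie left of 0, and that of complex III (0.02) lies near it.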

How the data were processed

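The deposited tables give 1 value per RefSeq transcript, 28430 in each library, with no header. The unit, RPKM as made by the authors, was inferred from the deposited values, since value times transcript length steps by whole reads. The submitters' processing notes name SAMtools 0.1.16, TopHat2 2.0.12, TopHat and CASAVA, and the build mm9. The counting program and its handling of strand and of reads with several matches were not given in the sources used here.

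The depth of each library was computed from the size of 1 read in low values. Of transcripts with 1 to 5 reads, 73.6% with Set1a siRNA and 74.7% with control siRNA lay within 0.1 of a whole read. As a few lengths differ between annotations, reads were solved as whole numbers in both libraries at the length nearest the annotated one, from 0.5 to 1.5 times it, which succeeded for 20764 of 21711 expressed transcripts (95.6%). Of the members, 42 had 1 such length, 13 several, 1 none, and 2 had 0 reads. Symbols, lengths, GC content and promoters came from GRCm38.p6 and GENCODE tables, and 27957 transcripts (98.3%) received a symbol. That build differs from mm9, so the promoter coordinates are not those of the authors' alignment.

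Folds are log2((Set1a siRNA RPKM + 1)/(control siRNA RPKM + 1)), for genes that average 1 RPKM or more. Ratios are of deposited RPKM, with exact Clopper-Pearson 95% intervals from the reads. With 1 library per group no test was run, and genes were counted by a 2-fold rule of size. The members and gene lists were chosen with earlier results of these data known. A rule named Setd1a, members at least 1.5-fold different at 5 RPKM or more, Cycs, the c subunit genes and tissue isoforms. It also named the highest level and the highest and lowest ratio (at 30 or more reads) of each group. Other members and genes of the comparison lists were named outside this rule, some of them after their values were seen. Near-identical copies were sought with BLAST 2.17.0. Python 3.11.15, numpy 2.4.6, pandas 2.3.3, scipy 1.17.1 and matplotlib 3.10.9 were used, and the scripts were tested on simulated data. Alternatives varied the pseudocount (0.1 and 5), the floor (none and 5), the transcript per gene, the scaling, the call rule, the summary, the genes summed, and a GC and length trend.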

Additional observations from a re-analysis of the deposited data

How the results depend on the processing

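No paired analysis was possible because both groups are single libraries. The counts past 2-fold were 0 in each direction under the pseudocounts, floors, scalings and transcript choices tried, with the trend removed, and without the members that have near-identical copies. With a 1.5-fold rule 1 member was lower, and by counting interval 4 were higher and 14 lower. The median log2 fold of all members was -0.07, and it was -0.045 with no floor, -0.018 with a GC and length trend (fitted on 7801 genes) removed, and -0.012 without the members that have near-identical copies, an alternative chosen after seeing the data. For complex IV the median of -0.16 became -0.024 with no floor, -0.086 with the trend removed and -0.084 as a mean. For complex V the median of -0.07 became -0.020 with the trend removed and 0.018 without the members with copies, and for the assembly genes it became 0.079 with the trend removed. With the trend removed, 28 members were lower and 25 higher. Their causes were not tested. Scaling by median of ratios divided the ratios by 1.005. Some values close to no difference changed side without a large move: the complex III median of 0.02 was -0.013 as a mean and -0.0022 without the members with copies, and that of the assembly genes was 0.017 without them. The summed-read ratio of complex III was 1.02 without its most abundant member, and Sdhb had 0.998 under median-of-ratios scaling. With no replicate, the spread between cultures is unknown, and at these depths a gene under about 30 reads, such as Cox4i2, allows no statement on its ratio.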
